A study of Mus musculus with 8 samples.

Results

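The genes described here encode heat shock proteins and DnaJ proteins, chosen by gene symbol alone: the HSP70 (*Hspa*), HSP90 (*Hsp90*) and small heat shock protein (*Hspb*) families, the chaperonin pair *Hspd1* and *Hspe1*, *Hsph1*, and the *Dnaja*, *Dnajb* and *Dnajc* families. The rule took 72 of the 33641 gene symbols in the BAT libraries, and 3 symbols with the suffix -ps were left out. The 72 genes were 14 of the *Hspa* family with *Hsph1*, 3 *Hsp90*, 8 *Hspb*, *Hspd1* with *Hspe1* (2), 4 *Dnaja*, 13 *Dnajb* and 28 *Dnajc* genes, with 334 transcripts between them. HSP70 proteins bind unfolded stretches of protein in cycles of ATP hydrolysis, DnaJ proteins (HSP40) deliver the substrate and speed up the hydrolysis, and HSP110 proteins such as that of *Hsph1* exchange the nucleotide. HSP90 acts later on proteins that are nearly folded, HSP60 with its lid HSP10 encloses proteins in mitochondria, and small heat shock proteins hold unfolded protein without ATP. Heat and other stress on proteins induce part of these genes through the transcription factor HSF1, while others are expressed in every cell, and brown adipocytes carry a large mitochondrial mass that needs import and folding of protein.

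RNA-seq was done on BAT, the heat-producing fat depot between the shoulder blades, from C57BL/6 mice aged 28 weeks, with 1 poly(A) library per mouse. In *Adipo-HuR-/-* mice both floxed alleles of *Elavl1*, which encodes the RNA binding protein HuR, are deleted by a Cre recombinase under the adiponectin promoter, so that adipocytes alone lose it and the other cells of the depot retain HuR. Control littermates were called wild-type in the labels, and the methods of the study count as wild-type mice that carry Cre without a floxed allele as well as mice with floxed alleles without Cre. By the labels, A12, A7 and A8 (3 libraries) are control and A31, A29, A26, A25 and A24 (5 libraries) are *Adipo-HuR-/-*. The study's legend gives the group sizes the other way round, and the groups are therefore called by their labels. *Elavl1* was the first check of the labels. Its gene total was 50.6 in A7, 49.2 in A12 and 48.0 in A8 CPM, with libraries scaled by TMM, in the libraries labelled control, and 61.9 in A24, 61.3 in A29, 61.2 in A31, 47.3 in A25 and 43.4 in A26 in those labelled *Adipo-HuR-/-*. Its mean was not lower in the latter, although A25 and A26 were under all controls (mean ± SD of 49.3 ± 1.28 CPM, n = 3, against 55.0 ± 8.95 CPM, n = 5, adjusted p = 0.667 in edgeR), so the total of *Elavl1* RNA does not check the labels and each direction below rests on them. The study names calcium cycling genes of the sarcoplasmic reticulum as reduced in *Adipo-HuR-/-* mice, and lists muscle contraction and response to heat among its enriched terms, in a table that gives neither a direction nor the genes of a term. All 25 contractile genes tested here were lower under that label. The study also lists the single genes that it found changed, and that list was not compared with the values here.

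Estimated counts totalled 60622522 in A7, 51751002 in A8, 50673814 in A12, 67498055 in A26, 50893173 in A29 and 58727739 in A31, but 18264754 in A24 and 17558090 in A25. The brown adipocyte markers *Ucp1* (4251 to 11438 CPM) and *Cidea* (1361 to 2931 CPM) were abundant in all 8 libraries, as the labelled tissue requires. A list of 26 skeletal muscle contractile genes, by contrast, summed to 4039 in A7, 2422 in A8 and 57.9 in A12 CPM in the libraries labelled control, and to 427 in A31, 55.3 in A29, 49.6 in A24, 38.1 in A25 and 28.3 in A26 in those labelled *Adipo-HuR-/-*. Muscle RNA was therefore high in A7 and A8, intermediate in A31 and low in the other 5 libraries. By TPM its most abundant gene was *Myl1*, a myosin light chain, with 236 in A8, 227 in A7 and 52.4 in A12 CPM in the libraries labelled control, and 47.9 in A31, 42.1 in A29, 39.0 in A24, 27.8 in A25 and 19.9 in A26 in the others, while *Myl2*, another, was at 0 in A24, A25, A26 and A29. Of the 25 contractile genes tested 22 had an unadjusted p under 0.05, and 3 (*Myh7*, *Myl1* and *Myl2*) passed the threshold defined below, all lower in the libraries labelled *Adipo-HuR-/-*.

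The 72 genes together took 1.04% of the counts in A7, 0.80% of the counts in A8 and 1.08% in A12 for the control label. Their share was 2.03% in A25, 1.43% in A31, 1.40% in A24, 1.03% in A26 and 0.95% in A29. A25, A31 and A24 thus had the highest shares, A8 had the lowest, and the groups overlapped. The order depends on the scaling: by sums of CPM scaled by TMM, A25, A24 and A31 were the highest, A29 was the lowest, and A8 lay above A7 and A26. Levels were compared between genes only as TPM, in which the count of each transcript is divided by its annotated length. On this scale RNA of a few chaperones made up most of the sum: the highest 3 genes held 38.6% of the mean TPM of the 72 and the highest 10 held 75.8%. *Hspa8*, the HSP70 that all cells express, had the highest mean over the 8 libraries (1461 TPM), before *Hsp90ab1*, the constitutive cytosolic HSP90 (886), *Hspb1*, a small heat shock protein (773), *Hspa9*, the mitochondrial HSP70 (698), and *Hsp90aa1*, the inducible cytosolic HSP90 (613). The mitochondrial chaperonin genes *Hspd1* (535 TPM) and *Hspe1* (455) came next, followed by *Dnajc15* (266), *Dnaja1* (257) and the inducible HSP70 gene *Hspa1b* (186). The place of *Hspa1b* rests on A25 (881 TPM) and A24 (367). In the other libraries it had 3.16 to 73.2 TPM, and its mean for the control label was 31.8 TPM. With the length of the longest transcript of each gene the level of *Dnaja1* was 95.1 TPM, and the other 9 moved by less than the spread between libraries. Neighbours in this order were not tested against each other. *Hspa9* had 691 ± 208 TPM (SD, n = 3) and then 703 ± 107 TPM (SD, n = 5) and *Hspb1* had 239.9 ± 89.1 TPM (SD, n = 3) and then 1093 ± 842 TPM (SD, n = 5) by label, control first, so that the order of their means differed between the groups. By library, *Hspb1* was above *Hspa9* in A24, A25 and A31. It was below *Hspa9* in A26 and A29, as in every library labelled control.

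Differences between the groups were tested in edgeR's quasi-likelihood test over the 14851 genes that passed its filter on low counts, with Benjamini-Hochberg adjustment over all of them, and a gene passed the threshold at an adjusted p of at most 0.05 and a fold change of at least 1.5. Of the 72 genes, 65 were tested and 7 were too low. None of the 65 passed the threshold, where 105 of all genes tested (0.707%) did. At an unadjusted p under 0.05 there were 15 of the 65 (23.1%), 9 with lower and 6 with higher values under the *Adipo-HuR-/-* label, beside 17% of all genes tested, the share to set beside each such count of a list. The count depended on the test: DESeq2's Wald test put 8 of the 65 (12.3%) past the same threshold, beside 823 of the 14546 genes with an adjusted p (5.66%), edgeR's likelihood ratio test put 6 past it, beside 655 of all genes (4.41%), and limma voom with sample quality weights put 0, beside 157 (1.06%). The 8 genes in DESeq2 were *Dnaja4*, *Dnajb13*, *Hspa12a*, *Hspa13*, *Hspa2*, *Hspb1*, *Hspb6* and *Hspb7*. For 8 of the 65 genes (12.3%) the groups did not overlap, a share close to the 11.5% of all genes tested. *Dnajb14*, *Dnajc3*, *Dnajc10*, *Hspa13* and *Hspa2* were lower in each library labelled *Adipo-HuR-/-* than in any labelled control (7.69%, beside 6.09% of all genes), and *Dnaja4*, *Dnajb13* and *Hspb1* were higher (4.62%, beside 5.37%). The median log2 fold change of the 65 genes was 0.019, and that of all genes tested was 0.000983. With libraries scaled by total counts only, these medians were 0.243 and 0.230, so that single genes near 0 change sign with the scaling. Groups without overlap have, by that fact alone, the smallest two-sided p that an exact permutation test over 56 splits can give, 0.0357.

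**Figure D1:**
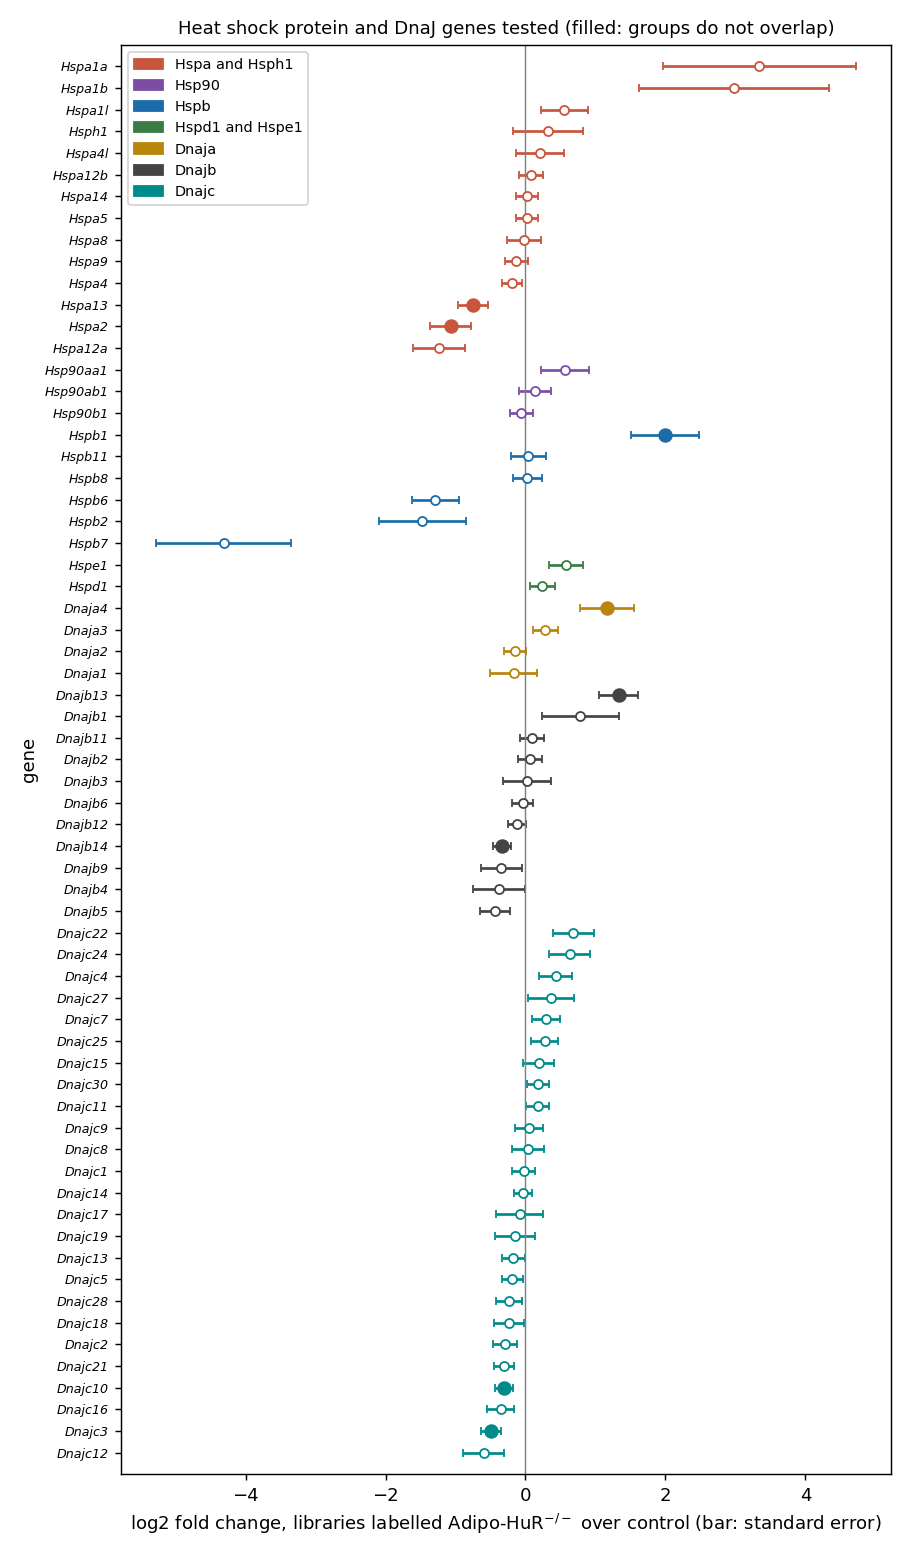
Log2 fold change (horizontal axis, libraries labelled Adipo-HuR−/− over control, positive where higher in the former) of each of the 65 genes tested (vertical axis), by family; points are edgeR estimates, bars are 1 standard error, and filled points mark the 8 genes whose groups do not overlap. The estimates run from −4.31 (Hspb7) to 3.34 (Hspa1a), and those of most Dnajc genes lie near 0.

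The inducible HSP70 genes *Hspa1a* (chr17:34969190-34972156, minus strand) and *Hspa1b* (chr17:34956436-34959238, minus strand) encode near-identical proteins and lie side by side, and of the 65 genes they had the largest ratios of the highest to the lowest library. *Hspa1a* had 73.9 in A12, 40.5 in A7 and 8.46 in A8 CPM in the libraries labelled control, and 1165 in A25, 676 in A24, 135 in A31, 96.7 in A26 and 5.93 in A29 in those labelled *Adipo-HuR-/-*. For *Hspa1b* the values were 123 in A12, 54.0 in A7 and 15.4 in A8 CPM, and 1402 in A25, 855 in A24, 134 in A31, 134 in A26 and 6.38 in A29. A25 and A24, which have the lowest totals, were far above the rest for both genes, while A29, with the same label, was the lowest of all 8, and the ratio of the highest to the lowest library was 196 for *Hspa1a* and 219.7 for *Hspa1b*. Both missed the threshold, with a log2 fold change of 3.34 (adjusted p = 0.252, standard error 1.37) for *Hspa1a* and a log2 fold change of 2.98 (adjusted p = 0.299, standard error 1.36) for *Hspa1b* in edgeR's quasi-likelihood test. Without A24 and A25 the log2 fold changes were 0.95 and 0.52. The part of sequencing depth in this result was not tested. As *Hspa1a* shares 63.8% of its 31-base words with *Hspa1b*, and *Hspa1b* 67.6% with *Hspa1a*, the division of counts between the pair is uncertain. Their sum, 197 in A12, 94.5 in A7 and 23.9 in A8 CPM, and 2567 in A25, 1532 in A24, 269 in A31, 231 in A26 and 12.3 in A29, had the same order. In bulk RNA, fewer cells with a transcript and less of the transcript per cell cannot be told apart.

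*Dnajb1*, the main inducible HSP40 partner of these HSP70 proteins, had 118 in A12, 92.3 in A7 and 41.0 in A8 CPM in the libraries labelled control, and 296 in A24, 195 in A25, 91.1 in A31, 90.8 in A26 and 49.1 in A29 in those labelled *Adipo-HuR-/-*. A24 and A25 were again the highest, A8 and A29 the lowest, and the groups overlapped, with a log2 fold change of 0.78 (adjusted p = 0.512, standard error 0.549) in edgeR's quasi-likelihood test and −0.12 without A24 and A25. *Hsph1*, the HSP110 nucleotide exchange factor, had 284 in A7, 280.2 in A12 and 149 in A8 CPM, and 664 in A25, 294 in A24, 250.4 in A31, 157 in A26 and 117 in A29. A25 alone stood above the other libraries here. The edgeR estimate of 0.32 (adjusted p = 0.796, standard error 0.4997) was −0.22 without A25. *Hspa4l*, a further HSP110 gene, ranged from 42.1 CPM in A8 to 150.4 in A25, and its relative *Hspa4* from 132 in A25 to 195 in A12. Thus A25, the highest library for *Hspa4l*, was the lowest for *Hspa4*. *Dnajb4*, an inducible HSP40 that is close to *Dnajb1*, had 76.0 in A12, 46.4 in A7 and 41.3 in A8 CPM, and 80.6 in A24, 43.4 in A25, 35.9 in A26, 25.4 in A31 and 25.3 in A29, with A12 and A24 the highest libraries and A29 and A31 the lowest, and a log2 fold change of −0.38 (adjusted p = 0.659, standard error 0.375) in edgeR. This log2 fold change was −0.063 without A12 and −0.76 without A24.

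The abundant cytosolic chaperones that are present without stress varied less than *Hspa1a* and *Hspa1b*. *Hspa8* had 2604 in A8, 2153 in A12 and 1769 in A7 CPM in the libraries labelled control, and 2908 in A24, 2371 in A25, 2172 in A31, 1714 in A26 and 1565 in A29 in those labelled *Adipo-HuR-/-*, an overlapping range with a log2 fold change of −0.019 (adjusted p = 0.976, standard error 0.245) in edgeR. *Hsp90ab1* had 1601 in A12, 1601 in A7 and 1155 in A8 CPM, and 2141 in A25, 1779.7 in A31, 1519 in A24, 1334 in A26 and 1206 in A29, with a log2 fold change of 0.14 (edgeR adjusted p = 0.815, standard error 0.233). Neither gene separated the groups, and A25 was the highest library for *Hsp90ab1* but not for *Hspa8*. *Hsp90aa1*, which stress induces, had 1109.7 in A12, 718 in A7 and 522 in A8 CPM, and 1649 in A25, 1582 in A31, 1041 in A24, 770.3 in A29 and 736 in A26. Its highest libraries were A25 and A31, and A12 and A24 were alike, with a log2 fold change of 0.56 (adjusted p = 0.449, standard error 0.346) in edgeR. Without A7, A8 and A31 it was −0.083, but A12, the highest control for this gene, is then the only control library. *Dnaja1*, the constitutive HSP40 partner of *Hspa8*, had 443 in A12, 357 in A8 and 289 in A7 CPM, and 527 in A24, 421 in A25, 256 in A26, 234 in A31 and 176 in A29. A24 had the highest and A29 the lowest value, both labelled *Adipo-HuR-/-* (−0.17, standard error 0.337, adjusted p = 0.840 in edgeR). The log2 fold change of *Dnaja1* was −0.0021 without A12 and −0.43 without A24. Processed copies of these genes are frequent in the genome: 77.2% of the 31-base words of *Hspa8*, 70.8% of those of *Hsp90aa1* and 33.0% of those of *Dnaja1* occur in other annotated genes, which limits how surely reads are assigned to them. A list of 13 heat-inducible chaperones also holds *Hspa8* and *Dnaja1*, present without stress, and the mitochondrial *Hspd1* and *Hspe1*. All 13 were tested, 0 passed the threshold in edgeR, 3 had an unadjusted p under 0.05 (*Hspa1a*, *Hspb1* and *Hspe1*), beside 17% of all genes tested, and the median log2 fold change was 0.32.

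Summed over these 13 genes, with the mitochondrial pair and *Hspa8* and *Dnaja1* included, the level per length was 3907 in A12, 3735 in A7 and 2346 in A8 TPM in the libraries labelled control, and 10556 in A25, 5732 in A24, 5408 in A31, 3359 in A26 and 3043 in A29 in those labelled *Adipo-HuR-/-*. A25 was the highest and A24 and A31 followed. The immediate early genes, a list of 14 that tissue handling also induces, had another order, with sums of 231 in A7, 142 in A12 and 79.3 in A8 TPM, and 194 in A24, 179 in A29, 173 in A31, 163 in A25 and 139.5 in A26. A8 was the lowest library for both lists in TPM, but with libraries scaled by TMM the lowest CPM sum of the heat-inducible list was that of A29. Their most abundant gene was *Dusp1*, a phosphatase, which was highest in A29 (113 CPM), where *Hspa1a* and *Hspa1b* were lowest, whereas *Fosb* was highest in A24 (24.2 CPM, beside at most 1.46 in the others; chosen after its values were seen). In edgeR 0 of the 14 passed the threshold. At an unadjusted p under 0.05 there were 2, both lower. How handling of the tissue contributes to either list was not tested.

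**Figure D2:**
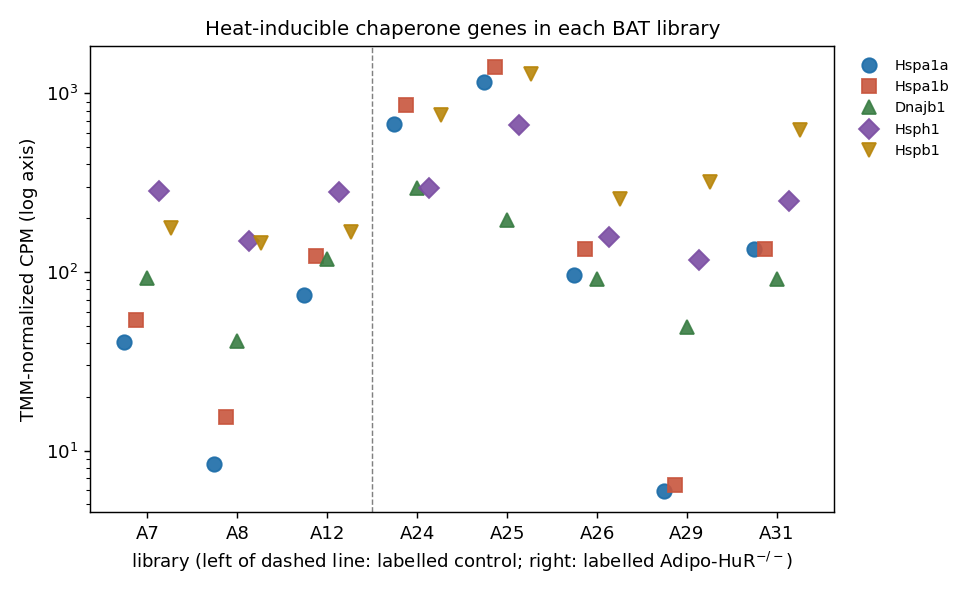
TMM-normalized CPM (vertical log axis) of 5 heat-inducible chaperone genes in each of the 8 libraries (horizontal axis), 3 labelled control to the left of the dashed line and 5 labelled Adipo-HuR−/− to the right; each point is 1 library. Hspa1a and Hspa1b reach 1165 and 1402 in A25 and are at 5.93 and 6.38 in A29, and Hspb1 is the gene of the 5 with no overlap between the groups.

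HSF1 binds arrays of the unit GAA in alternating orientation, and promoters were searched for it because it induces *Hspa1a*, *Hspa1b* and *Dnajb1*. The RefSeq promoter table (GRCm38.p6, 250 bases before to 50 after each start) held 58 of the 72 genes, and *Hspa8*, *Hsp90aa1*, *Hsp90ab1*, *Hspa9* and *Hspa13* were among the 14 that it did not hold. On both strands, the 3-unit element GAANNTTCNNGAA was found in 4 of the 58 genes (6.90%), beside 179 of 27025 genes with a promoter (0.662%). These were *Hspd1* and *Hspe1*, which share the site in a common promoter, *Dnajb6*, and *Hsph1*, where it lies after the start. The shorter pair GAANNTTC, which the element contains, was found in 14 of the 58 (24.1%), beside 9.04% of all genes, and the opposite pair TTCNNGAA in 6 (10.3%), beside 9.60%. *Dnajb1*, whose promoter the table held, had none of the 3. *Hspa1a* and *Hspa1b* carry the pair in the same 30 bases, *Hspb1* carries it at 2 places and *Dnaja4* also at 2, of which the one outside its annotated exons is given. The stretches are on the strand of the gene, with the matched letters in capitals; those of *Hspa1a*, *Hspa1b* and *Hspb1* lie upstream of the annotated genes, that of *Dnaja4* lies in an intron of a longer *Dnaja4* transcript, and the *Hspe1* stretch, with a pair of overlapping matches, lies within a 5′ UTR exon of an annotated *Hspd1* transcript on the opposite strand.
Hspa1a, chr17:34972242-34972271, minus strand: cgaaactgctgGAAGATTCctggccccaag
Hspa1b, chr17:34959324-34959353, minus strand: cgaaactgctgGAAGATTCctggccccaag
Hspb1, first site, chr5:135887791-135887820, plus strand: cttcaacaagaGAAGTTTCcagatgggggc
Hspb1, second site, chr5:135887811-135887840, plus strand: agatgggggcaGAACCTTCctggccccgcc
Dnaja4, chr9:54699458-54699487, plus strand: ggaacctccgcGAACGTTCtgggcctatgt
Hspe1, chr1:55088053-55088082, plus strand: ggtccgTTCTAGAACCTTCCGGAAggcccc

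A match describes letters and is no evidence of binding. Genes with the pair did not share 1 pattern: *Hspb6*, which also has it, was highest in A7 and A8.

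Among the small heat shock protein genes, *Hspb1* (chr5:135887919-135889563, plus strand), which encodes HSP25, had 177 in A7, 168 in A12 and 145 in A8 CPM in the libraries labelled control, and 1283 in A25, 761 in A24, 625 in A31, 318 in A29 and 256 in A26 in those labelled *Adipo-HuR-/-*. Each library labelled *Adipo-HuR-/-* was above each labelled control, and A25, A24 and A31 were the highest (mean ± SD of 163 ± 16.7 CPM, n = 3, against 649 ± 412 CPM, n = 5). The log2 fold change was 1.99 (standard error 0.488) with an adjusted p of 0.0858 in edgeR, which missed the threshold. Without A24 and A25 it was 1.29, and without each library in turn it lay between 1.59 and 2.20. The 31-base words of *Hspb1* are shared to 61.7% with its processed copy *Hsp25-ps1*, which itself had at most 1.47 CPM. *Hspb8*, a partner of BAG3 in the removal of damaged protein, had 188 in A12, 184 in A8 and 168 in A7 CPM, and 229 in A25, 220.2 in A31, 197 in A24, 143 in A29 and 129 in A26, and did not separate the groups (0.028, standard error 0.212, adjusted p = 0.960 in edgeR).

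*Hspb6*, *Hspb7*, *Hspb2* and *Hspb3* are small heat shock protein genes of striated muscle, and A7 and A8, with the most contractile RNA, were the highest libraries for each of them. *Hspb7* (cvHSP, chr4:141420779-141425311, plus strand) had 22.3 in A7, 10.03 in A8 and 0.355 in A12 CPM in the libraries labelled control, and 1.33 in A31, 0.459 in A26, 0.338 in A24, 0.237 in A25 and 0.189 in A29 in those labelled *Adipo-HuR-/-*. *Hspb6* (HSP20, chr7:30552178-30555443, plus strand) had 62.8 in A7, 62.0 in A8 and 17.9 in A12 CPM, and 23.0 in A29, 21.5 in A31, 20.4 in A24, 17.6 in A26 and 14.9 in A25. For both genes A7 and A8 were the highest and A12, although labelled control, lay among the libraries labelled *Adipo-HuR-/-*, so that the groups overlapped. A31, with the highest contractile sum of its group, was also the highest of it for *Hspb7*, but not for *Hspb6*. *Hspb7* had a log2 fold change of −4.31 (adjusted p = 0.0725, standard error 0.964) and *Hspb6* a log2 fold change of −1.29 (adjusted p = 0.0984, standard error 0.338) in edgeR. Both passed the threshold when A12 was left out (log2 fold changes of −4.87 and −1.68). Leaving out A7, A8 and A31 keeps A12 as the only control library. The log2 fold changes were then −0.20 and 0.079, from which no direction of the groups can be read. With the contractile score as a covariate they were −0.77 and −0.31. The counts of *Hspb7* were 1380 in A7, 396 in A8, 88 in A31, 31 in A26, 17 in A12, 10 in A29, 6 in A24 and 5 in A25. In A12, A29, A24 and A25, few counts therefore carry its value. *Hspb2* had 1.14 in A8, 1.12 in A7 and 0.251 in A12 CPM, and 0.733 in A24, 0.341 in A29, 0.197 in A31, 0.190 in A25 and 0.148 in A26 (−1.47, standard error 0.620, adjusted p = 0.261 in edgeR), and 30.2% of its exon bases overlap *Cryab* on the opposite strand. Without A7, A8 and A31, which keeps A12 as the only control library, its log2 fold change was 0.40. A7 and A8 were the highest libraries for it as well, and the sources do not say if strand was used in counting.

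*Cryab*, the alpha-crystallin that forms oligomers with these proteins, had 80.3 in A7, 52.4 in A8 and 21.6 in A12 CPM, and 33.2 in A29, 24.1 in A31, 23.1 in A24, 18.1 in A25 and 13.8 in A26, with a log2 fold change of −1.20 (adjusted p = 0.141, standard error 0.375) in edgeR, and *Cryaa* was at 0 in 7 libraries. *Hspb3* was too low to be tested, with 0.632 CPM in A7, 0.177 in A8, 0.0151 in A31 and 0 in the other 5 libraries. The value in A31 rests on 1 count, and A7 and A8 also had the most contractile RNA. *Hspa12a*, an atypical HSP70 family gene, had 38.8 in A7, 15.1 in A12 and 10.6 in A8 CPM, and 11.95 in A29, 10.96 in A25, 8.71 in A31, 7.72 in A26 and 6.43 in A24, with A7 far above the others and a log2 fold change of −1.23 (adjusted p = 0.1301, standard error 0.370) in edgeR. Without A7 it was −0.49. On the list of 6 small heat shock proteins abundant in striated muscle, 5 were tested, 0 passed the threshold in edgeR, 4 had an unadjusted p under 0.05 (*Hspb2*, *Hspb6* and *Hspb7* lower, *Hspb1* higher), beside 17% of all genes tested, and the median log2 fold change was −1.29. The median of the 25 contractile genes tested was −4.66. How far RNA of muscle fibres accounts for the values of *Hspb6*, *Hspb7*, *Hspb2* and *Hspb3* was not tested.

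**Figure D3:**
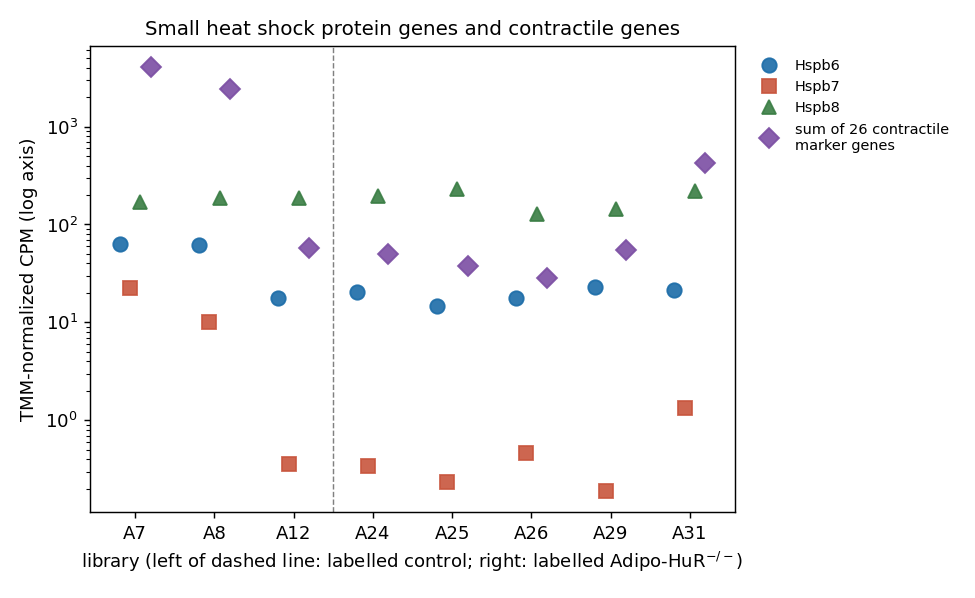
TMM-normalized CPM (vertical log axis) of Hspb6, Hspb7, Hspb8 and the sum of 26 skeletal muscle contractile genes in each of the 8 libraries (horizontal axis), 3 labelled control to the left of the dashed line and 5 labelled Adipo-HuR−/− to the right; each point is 1 library. Hspb7 is at 22.3 in A7, 10.03 in A8 and 0.355 in A12, and the contractile sum has the same order in these 3 libraries, while Hspb8 lies between 129 and 229 throughout.

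In the endoplasmic reticulum (ER), *Hspa5* (BiP) is the HSP70 and *Hsp90b1* (GRP94) the HSP90, and the DnaJ proteins of *Dnajb9*, *Dnajb11*, *Dnajc1*, *Dnajc3* and *Dnajc10* work with BiP. The groups overlapped for both of this abundant pair. *Hspa5* had 291 in A8, 266 in A12 and 250.4 in A7 CPM in the libraries labelled control, and 316 in A24, 299 in A31, 260.3 in A29, 256 in A26 and 234 in A25 in those labelled *Adipo-HuR-/-* (0.019, standard error 0.157, adjusted p = 0.964 in edgeR). *Hsp90b1* had 229 in A8, 214 in A12 and 214 in A7 CPM, and 261 in A31, 216 in A24, 199.98 in A26, 197 in A29 and 174 in A25 (−0.061, standard error 0.163, edgeR adjusted p = 0.887). Of the 8 ER genes, 3 (*Dnajc3*, *Dnajc10* and *Hspa13*) were lower in every library labelled *Adipo-HuR-/-* than in any labelled control, beside 6.09% of all genes tested. *Dnajc3* (P58IPK, chr14:118937976-118981697, plus strand), a co-chaperone of BiP that also binds the kinase PERK, had 83.0 in A12, 67.9 in A8 and 58.4 in A7 CPM, and 51.5 in A24, 51.3 in A31, 50.01 in A25, 48.7 in A29 and 46.6 in A26. The libraries labelled *Adipo-HuR-/-* lay close together and under all controls (mean ± SD of 69.8 ± 12.4 CPM, n = 3, against 49.6 ± 2.02 CPM, n = 5), with a log2 fold change of −0.49 (adjusted p = 0.122, standard error 0.144) in edgeR. *Hspa13* (STCH, chr16:75745431-75767104, minus strand), a short HSP70 homologue of microsomes, had 20.9 in A12, 15.0 in A7 and 10.1 in A8 CPM, and 8.01 in A24, 8.85 in A29, 9.10 in A26, 9.77 in A25 and 10.1 in A31. A8 was only just above the highest library labelled *Adipo-HuR-/-*, and the result was a log2 fold change of −0.74 (edgeR adjusted p = 0.119, standard error 0.213). It passed the threshold when A8 was left out (−0.97), and its value without A12, the highest library, was −0.46. *Dnajc10* (ERdj5, chr2:80315466-80354043, plus strand), a reductase of misfolded ER proteins, had 16.1 in A12, 15.5 in A8 and 15.1 in A7 CPM, and 13.5 in A26, 12.9 in A31, 12.8 in A29, 12.5 in A25 and 11.3 in A24, a small difference with a log2 fold change of −0.30 (edgeR adjusted p = 0.264, standard error 0.129).

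*Dnajb9* (ERdj4) ranged from 19.9 CPM in A29 to 57.4 in A12, and its sign changed without A12 (log2 fold change of −0.35 with and 0.067 without it). *Dnajb11* (ERdj3) ranged from 26.4 in A26 to 38.7 in A31, and *Dnajc1* from 12.2 in A24 to 17.6 in A12, with adjusted p-values of 0.824 and 0.947 in edgeR. Over the 8 ER genes 0 passed the threshold, 3 had an unadjusted p under 0.05, beside 17% of all genes tested, and the median log2 fold change was −0.18. Of 20 other genes of ER folding and the unfolded protein response, all tested, 0 passed it in edgeR, 3 had an unadjusted p under 0.05 (2 lower and 1 higher) and the median was −0.080. The most abundant of them, *Calr*, a lectin chaperone, had 326 in A8, 235 in A12 and 209 in A7 CPM, and 303 in A31, 249.5 in A24, 235 in A29, 184 in A26 and 176 in A25. *Xbp1* and *Ddit3*, transcription factors of the response, had edgeR adjusted p-values of 0.751 and 0.683. *Sil1*, the nucleotide exchange factor of BiP, was lower without overlap (29.3 in A8, 19.9 in A7 and 18.5 in A12 CPM, and 17.6 in A29, 17.1 in A26, 17.1 in A24, 16.1 in A31 and 15.4 in A25), with an adjusted p of 0.222 in edgeR, and *P4hb*, protein disulphide isomerase, also did not overlap (−0.16, adjusted p = 0.556). *Creld2*, with the smallest adjusted p of the 20, was higher, with overlapping groups (log2 fold change of 0.57, adjusted p = 0.192 in edgeR). Log2 fold changes were below 0 for 11 of the 20 and above 0 for 9. *Sil1*, *P4hb*, *Creld2*, *Xbp1* and *Ddit3* were named after their values were seen.

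The promoters were also searched for the ER stress element, through which ATF6 and XBP1 induce ER chaperones. The letters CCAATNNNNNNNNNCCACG were found on either strand in 3 of the 58 genes with a promoter (5.17%), beside 37 of the 27025 genes (0.137%). They were *Dnajc3*, *Hspa5* and *Hsp90b1*, the last with 2 sites, 1 in each orientation. In the stretches, on the strand of the gene, the matched letters are in capitals, and they lie upstream of the annotated genes for *Dnajc3* and *Hsp90b1*, and in a 5′ UTR exon of an annotated *Hspa5* transcript for *Hspa5*.
Dnajc3, chr14:118937822-118937850, plus strand: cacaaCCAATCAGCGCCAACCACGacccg
Hspa5, chr2:34772020-34772048, plus strand: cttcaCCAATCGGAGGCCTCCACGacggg
Hsp90b1, site nearer the start, chr10:86705528-86705556, minus strand: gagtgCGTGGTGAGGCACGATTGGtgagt
Hsp90b1, site farther from the start, chr10:86705633-86705661, minus strand: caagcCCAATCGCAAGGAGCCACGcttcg

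The mitochondrial members included 4 of the 8 highest genes by TPM. *Hspa9* (mortalin), the HSP70 of the matrix that also drives protein import, had 1659.7 in A7, 1615 in A8 and 1571 in A12 CPM in the libraries labelled control, and 1678 in A26, 1541 in A31, 1393 in A24, 1391 in A29 and 1362 in A25 in those labelled *Adipo-HuR-/-* (−0.13, standard error 0.164, adjusted p = 0.733 in edgeR). *Hspd1* (HSP60, chr1:55077835-55088243, minus strand) had 863 in A12, 800.1 in A7 and 738 in A8 CPM, and 1136 in A25, 963 in A26, 945 in A24, 939.6 in A31 and 753 in A29. *Hspe1* (HSP10, chr1:55088132-55091307, plus strand), the lid of the HSP60 barrel, had 238 in A8, 199 in A12 and 142 in A7 CPM, and 355 in A24, 345 in A31, 309 in A25, 228 in A29 and 207 in A26. The 2 genes are transcribed away from each other, A24, A25 and A31 were among the highest 4 libraries for both, and the groups overlapped for each, with a log2 fold change of 0.24 (edgeR adjusted p = 0.538, standard error 0.179) and a log2 fold change of 0.58 (adjusted p = 0.255, standard error 0.242). Other annotated genes hold 55.8% of the 31-base words of *Hspd1* and 48.1% of those of *Hspe1*, with the same limit on assignment. *Dnaja3* (TID1), an HSP40 of mitochondria, had 305 in A8, 258 in A12 and 234 in A7 CPM, and 412 in A26, 315 in A24, 308 in A31, 297 in A29 and 289 in A25, with A26 the highest (0.29, standard error 0.176, edgeR adjusted p = 0.449). *Dnajc15* and *Dnajc19*, related proteins of the inner membrane of which the latter is near the import motor, were highest in A24 (171 CPM) and A8 (67.3 CPM), with edgeR adjusted p-values of 0.719 and 0.840. *Dnajc11*, which is tied to the cristae, ranged from 108 to 159 CPM, and *Dnajc30* from 13.1 to 19.6. Of the 8 mitochondrial members 0 passed the threshold in edgeR, 1 (*Hspe1*) had an unadjusted p under 0.05, and the median log2 fold change was 0.18.

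On the list of 14 other genes of mitochondrial folding and proteolysis, 0 passed the threshold, 2 had an unadjusted p under 0.05, both higher (*Grpel2* and *Htra2*), and the median was 0.11. *Grpel2*, a nucleotide exchange factor of mortalin, had 22.1 in A12, 21.9 in A8 and 19.0 in A7 CPM, and 29.6 in A25, 28.5 in A29, 28.2 in A26, 28.1 in A31 and 24.03 in A24, and *Trap1*, the mitochondrial HSP90, had 295 in A8, 284 in A7 and 264 in A12 CPM, and 264 in A24, 246 in A25, 242 in A31, 241 in A26 and 219.5 in A29. The groups did not overlap for either, *Grpel2* being higher and *Trap1*, with A24 only just under A12, lower under the *Adipo-HuR-/-* label, with adjusted p-values of 0.166 and 0.472 in edgeR. *Grpel2* and *Htra2* were named after their values were seen. By TPM *Trap1* was the most abundant of the 14.

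Of the remaining DnaJ genes, *Dnaja4* (chr9:54698873-54716315, plus strand), an HSP40 of type A linked to sterol metabolism, had 45.3 in A12, 33.7 in A8 and 29.8 in A7 CPM in the libraries labelled control, and 164 in A25, 74.1 in A24, 63.9 in A26, 56.7 in A31 and 47.5 in A29 in those labelled *Adipo-HuR-/-*. All 5 were above all 3 controls, A29 only just, and A25 was more than any other (mean ± SD of 36.3 ± 8.05 CPM, n = 3, against 81.2 ± 47.3 CPM, n = 5), with a log2 fold change of 1.16 (adjusted p = 0.164, standard error 0.387) in edgeR and 0.74 without A25. Of its exon bases 44.1% overlap *Wdr61* on the opposite strand, which had 49.6 in A8, 36.2 in A7 and 36.2 in A12 CPM, and 58.8 in A24, 43.1 in A29, 40.9 in A26, 40.0 in A31 and 39.3 in A25. The order of the libraries for *Wdr61* differed from that for *Dnaja4*, with A25 below A24. How far reads of *Wdr61* enter the values of *Dnaja4* was not tested. *Dnajb13* (chr7:100501716-100514960, minus strand), known from sperm flagella and cilia, was at a low level but had the smallest edgeR adjusted p of the 65 genes, with 1.70 in A7, 1.30 in A12 and 1.04 in A8 CPM, and 4.29 in A24, 3.98 in A31, 2.94 in A29, 2.90 in A26 and 2.89 in A25. The groups were well apart (mean ± SD of 1.34 ± 0.334 CPM, n = 3, against 3.40 ± 0.679 CPM, n = 5), with a log2 fold change of 1.33 (adjusted p = 0.0600, standard error 0.273) in edgeR. It passed the threshold when only genes with at least 10 counts in every library were tested. Apart from the fit with A12 as only control, its adjusted p over the alternatives in edgeR, DESeq2 and limma lay between 0.000183 and 0.219. *Dnajb13* lies beside *Ucp2*, a mitochondrial carrier gene, and 11.2% of its exon bases overlap *Ucp2* on the opposite strand. *Ucp2* had 42.1 in A7, 30.6 in A12 and 29.3 in A8 CPM, and 47.8 in A26, 47.5 in A29, 39.6 in A24, 33.6 in A25 and 32.4 in A31, with overlapping groups and another order of libraries. Whether reads of *Ucp2* enter the values of *Dnajb13* was not tested.

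*Dnajb14* (chr3:137867675-137916557, plus strand), an HSP40 anchored in the ER membrane, had 37.7 in A12, 35.9 in A7 and 34.5 in A8 CPM, and 31.1 in A31, 30.7 in A29, 27.9 in A24, 27.3 in A26 and 26.1 in A25. The groups did not overlap but lay close to each other (mean ± SD of 36.0 ± 1.62 CPM, n = 3, against 28.6 ± 2.18 CPM, n = 5), with a log2 fold change of −0.33 (adjusted p = 0.217, standard error 0.127) in edgeR. *Dnajb6* and *Dnajb2*, which suppress aggregation in neurons and muscle, overlapped between the groups (68.6 to 93.6 CPM and 58.6 to 89.0 CPM, adjusted p = 0.918 and 0.880 in edgeR). *Dnajb5* had the lowest log2 fold change of the *Dnajb* genes (−0.43, standard error 0.214, edgeR adjusted p = 0.341), with values from 4.17 CPM in A24 to 6.84 in A8 and 8.32 in A7, which were its highest libraries. Without A7, A8 and A31, which takes out these highest libraries and keeps A12 as the only control, its log2 fold change was 0.064. In the *Dnaja* family, *Dnaja2*, a constitutive partner of *Hspa8*, ranged from 82.8 to 123 CPM (edgeR adjusted p = 0.662). Among the *Dnajc* genes, *Dnajc7*, a TPR protein between HSP70 and HSP90, ranged from 78.4 CPM in A12 to 142 in A29 (edgeR adjusted p = 0.492). The highest log2 fold change of this family was that of *Dnajc22*, with 8.19 in A7, 6.41 in A8 and 6.35 in A12 CPM, and 18.1 in A29, 12.8 in A24, 9.98 in A31, 8.02 in A26 and 7.16 in A25 (0.68, standard error 0.298, edgeR adjusted p = 0.276), and the lowest that of *Dnajc12*, a partner of the aromatic amino acid hydroxylases, with 4.41 in A8, 3.49 in A12 and 2.79 in A7 CPM, and 3.67 in A24, 2.52 in A29, 2.18 in A25, 1.91 in A31 and 1.59 in A26 (−0.60, standard error 0.298, adjusted p = 0.344). A29 was the highest library for *Dnajc22*, whose log2 fold change was 0.44 without it, and both genes overlapped between the groups. Of the 25 *Dnajc* genes tested, 3 had an unadjusted p under 0.05, and the family's median log2 fold change was −0.037, while those of the 11 *Dnajb* and the 4 *Dnaja* genes were −0.041 and 0.067. These medians are smaller than the shift of 0.228 that scaling by total counts gives.

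*Hspa2* (chr12:76404176-76406938, plus strand), an HSP70 best known from male germ cells, had 3.76 in A7, 3.11 in A8 and 3.01 in A12 CPM in the libraries labelled control, and 2.20 in A24, 1.91 in A26, 1.57 in A25, 1.29 in A31 and 0.947 in A29 in those labelled *Adipo-HuR-/-*. The groups did not overlap at this low level (mean ± SD of 3.29 ± 0.405 CPM, n = 3, against 1.58 ± 0.495 CPM, n = 5), with a log2 fold change of −1.07 (adjusted p = 0.106, standard error 0.292) in edgeR, and its counts were 232 in A7, 123 in A8, 144 in A12, 129 in A26, 85 in A31, 50 in A29, 39 in A24 and 33 in A25. In A24 and A25, few counts therefore carry the value. The 7 genes too low to be tested were *Dnajb7*, *Dnajb8*, *Dnajc5b*, *Dnajc5g*, *Dnajc6*, *Hspb3* and *Hspb9*, and their highest value in any library was 0.664 CPM. They are mostly genes of testis (4 of the 8 on that list were tested) or neurons (4 of 5). The median log2 fold change was 0.29 for the testis list and −0.12 for the neuronal list, and 0 genes of either passed the threshold in edgeR, with 2 and 1 genes at an unadjusted p under 0.05.

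Genes that regulate or assist the chaperones were taken from lists. *Hsf1*, the heat shock transcription factor, had 18.6 in A7, 17.7 in A8 and 15.2 in A12 CPM in the libraries labelled control, and 28.0 in A26, 27.1 in A31, 26.2 in A24, 24.2 in A29 and 23.3 in A25 in those labelled *Adipo-HuR-/-*. It was higher in each of the latter, A25 being the lowest of them, with a log2 fold change of 0.59 (adjusted p = 0.0810, standard error 0.138) in edgeR. *Hsf1* was picked for mention with its values already known. Among the 4 regulators tested, 0 passed the threshold and 1 (*Hsf1*) had an unadjusted p under 0.05, and the most abundant, *Hsbp1*, a binding partner of HSF1, had an edgeR adjusted p of 0.676. Of 26 co-chaperones of HSP70 and HSP90, 0 passed the threshold, 4 had an unadjusted p under 0.05 (1 lower and 3 higher), and the median log2 fold change was 0.11. *Unc45a*, a myosin co-chaperone of HSP90, had 15.0 in A8, 14.4 in A12 and 14.1 in A7 CPM, and 23.4 in A29, 23.3 in A26, 23.3 in A31, 20.2 in A25 and 19.9 in A24, without overlap (0.60, standard error 0.132, edgeR adjusted p = 0.0686). Its muscle relative *Unc45b* had 11.55 in A7, 11.47 in A8 and 5.33 in A12 CPM, and 17.2 in A26, 15.8 in A25, 15.3 in A29, 15.2 in A24 and 14.2 in A31, also without overlap (edgeR adjusted p = 0.166), and thus was not highest in A7 and A8, unlike *Hspb7*. *Bag2*, an inhibitor of the HSP70 co-factor CHIP, was lower without overlap (11.4 in A12, 9.04 in A7 and 7.98 in A8 CPM, and 7.68 in A31, 7.67 in A24, 5.48 in A26, 4.51 in A29 and 4.46 in A25, edgeR adjusted p = 0.189). These 3 genes and *Bag3* were named after their values were seen. *Bag3*, a partner of *Hspb8*, ranged from 48.9 CPM in A29 to 183 in A24, and *Bag1*, the most abundant of the 26, had an edgeR adjusted p of 0.634. The cytosolic chaperonin TRiC and prefoldin had 0 of 13 genes past the threshold and 0 at an unadjusted p under 0.05, with a median of −0.037 and *Pfdn5*, a prefoldin subunit, as the most abundant by TPM (edgeR adjusted p = 0.960).

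Lists of markers stood for the cells of the depot. For the 14 brown adipocyte markers 0 passed the threshold in edgeR and 1 had an unadjusted p under 0.05, with a median log2 fold change of −0.063, sums from 16110.4 CPM in A25 to 34390.2 in A8, and *Fabp4* as the most abundant. The 8 endothelial markers were all above 0 in log2 fold change, with 0 past the threshold and 2 at an unadjusted p under 0.05 (median 0.21, most abundant gene by TPM *Egfl7*, sums of 408 to 520.3 CPM in the libraries labelled control and 380.4 to 631 in those labelled *Adipo-HuR-/-*). None of the 8 macrophage markers passed it or had an unadjusted p under 0.05 (median −0.39, most abundant gene by TPM *Lyz2*, sums of 36.7 to 132 CPM in the libraries labelled control and 63.3 to 118 in those labelled *Adipo-HuR-/-*). Of 8 fibroblast and progenitor markers 0 passed it and 1 had an unadjusted p under 0.05 (median −0.32, most abundant gene by TPM *Dcn*, sums of 175 to 516 CPM in the libraries labelled control and 129.8 to 301 in those labelled *Adipo-HuR-/-*). Smooth muscle and pericyte markers had 0 of 8 past it and 2 at an unadjusted p under 0.05 (median 0.0082, most abundant gene by TPM *Rgs5*, sums of 338 to 413 CPM in the libraries labelled control and 326 to 379 in those labelled *Adipo-HuR-/-*). Among the 8 Schwann cell and nerve markers 4 had an unadjusted p under 0.05, 2 lower and 2 higher, and 1 passed the threshold, *S100b*, which adipocytes also express, with 138 in A8, 132 in A7 and 82.5 in A12 CPM, and 56.1 in A24, 52.0 in A29, 46.1 in A31, 43.8 in A26 and 39.7 in A25 (−1.31, edgeR adjusted p = 0.0250). The median of that list was 0.015. Lymphocyte markers summed to at most 2.78 CPM, with 0 of 6 past it, 1 at an unadjusted p under 0.05 and a median of 0.45, *Cd79a* being the most abundant. Of the 6 red blood cell markers tested 0 passed it and 1 had an unadjusted p under 0.05 (median −0.43, most abundant gene by TPM *Hbb-bs*, sums of 773 to 1082 CPM in the libraries labelled control and 365 to 1155 in those labelled *Adipo-HuR-/-*). Below 0 in log2 fold change were all 6 of these, 7 of the 8 macrophage markers and 7 of the 8 fibroblast and progenitor markers. Above 0 were 5 of the 6 lymphocyte markers. As with the contractile genes, A7 and A8 were the highest libraries for *Hspb7*, *Hspb6* and *Hspb2*.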

How the data were processed

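Poly(A) RNA-seq libraries of BAT from 8 mice, 1 library per mouse and none pooled, were grouped by their labels into 3 control and 5 *Adipo-HuR-/-* libraries. The deposited files hold estimated counts per transcript, which the authors left unscaled between libraries. The paper names CLC Genomics Workbench for read mapping, and does not say which program divided reads between transcripts or whether strand was used.

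Counts of the 105129 transcripts were summed to 33641 gene symbols and rounded. Totals per library ran from 17558090 to 67498055. Genes passing filterByExpr (14851) were tested between the groups with TMM scaling in edgeR 4.0.16 (quasi-likelihood test) under R 4.3.3, with Benjamini-Hochberg adjustment over all of them. The threshold was an adjusted p of at most 0.05 with a fold change of at least 1.5. Standard errors are those of the fitted log2 fold change. TPM used transcript lengths of GENCODE M21 (GRCm38). Python 3.11.15 with numpy 2.4.6, pandas 2.3.3 and matplotlib 3.10.9 was used for sums and figures.

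The alternatives were DESeq2 1.42.0 (Wald test), DESeq2 size factors or total counts in edgeR, edgeR's likelihood ratio test, limma 3.58.1 (voom, samples weighted by quality), a stricter filter of at least 10 counts per library or none, the highest transcript of each gene, a covariate from the contractile markers, other thresholds, and leaving out A24 with A25, A7 with A8 and A31, or each library in turn. Leaving out A7 with A8 and A31 keeps A12 as the only control library, so this fit gives effect sizes only.

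Heat shock protein and DnaJ genes were taken by symbol, without names ending in -ps. They, the gene lists and the libraries to leave out were chosen with earlier results of these data known. Named genes were those past the threshold, those with an unadjusted p under 0.05 and no overlap between the groups, the highest 3 by TPM and the largest rise and fall of each class, and the heat-inducible, striated muscle, ER and mitochondrial genes; genes too low to be tested were listed. From each other list any gene past the threshold and the most abundant gene by TPM were named. Sharing of sequence between genes was measured in words of 31 bases of annotated transcripts. Promoters were those of RefSeq on GRCm38.p6, from 250 bases before to 50 after the start, and printed stretches hold at most 30 bases. No protein table was at hand.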

Additional observations from a re-analysis of the deposited data

Results flagged for a closer look

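In the 5 libraries labelled *Adipo-HuR-/-*, each of 44 named genes was checked for a library far from the others of its group, and 4 had one. *Dnaja3* was at 411.9 CPM in A26, where the next library had 314.7. *Dnaja4* was at 164.1 CPM in A25, and the next had 74.11. *Dnajc15* was at 171.3 CPM in A24, and the next had 136. *Hspb7* was at 1.333 CPM in A31, and the next had 0.4593. The check was Dixon's test on CPM without logarithms. Chance gives such a library in about 1 in 20 groups if the values follow a normal distribution. Whether they do, and why these libraries stand apart, was not tested.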

How the results depend on the processing

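The number of genes past the threshold was 105, and 823 in DESeq2, 655 in edgeR's likelihood ratio test, 16 with the highest transcript, 14 with the contractile covariate, 5 without A24 and A25, and 469 at an adjusted p of at most 0.1. The fit without A7, A8 and A31 has A12 as its only control library, so no count of genes past the threshold is given for it. Leaving out each library in turn gave 10 (A26) to 190 (A12). Of the 65 heat shock protein and DnaJ genes tested 0 passed it. In DESeq2 8 did (12.3%, beside 5.66% of all genes with an adjusted p), and in the likelihood ratio test 6 (9.23%, beside 4.41%). At an adjusted p of at most 0.1 there were 4, beside 469 of the 14851 genes tested. There was 1 with at least 10 counts in every library (*Dnajb13*) and 1 without a filter (*Hspb7*). Without each library in turn it was 0 to 2, with *Hspb6* and *Hspb7* past it without A12 and *Hspa13* without A8. For the 2 filters and for leaving out libraries no share of all genes is given, so those counts cannot be read as a result about the family. At an adjusted p of at most 0.05 and any fold change there were 0, but 9 in DESeq2, 6 in the likelihood ratio test, 1 with at least 10 counts in every library and 1 without a filter, and 0 to 2 without each library in turn. No share of all genes was taken at any fold change, so these counts cannot be read as a result about the family. The groups did not overlap for 8 genes (11.5% of all genes), but for 13 with total counts only (13.4%), 13 without A24 and A25 (21.1%), 38 without A7, A8 and A31 (53.0%), and 8 (A25, 13.3%) to 21 (A8, 26.5%) without each library in turn. Fewer libraries overlap less by construction. Over 834 alternative fits of the log2 fold change of 44 named genes, 759 kept its direction and its side of the threshold, 19 kept the direction and passed it, and 56 reversed, and 21 of the genes reversed in none. These numbers include the fits with A12 as the only control library.

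With total counts only, it reversed to 0.064 for *Dnaja1*, 0.080 for *Dnaja2*, 0.19 for *Dnajb6*, 0.21 for *Dnajc1*, 0.15 for *Dnajc19*, 0.17 for *Hsp90b1*, 0.035 for *Hspa4*, 0.24 for *Hspa8* and 0.094 for *Hspa9*. Without A24 and A25, it reversed to −0.12 for *Dnajb1*, −0.13 for *Dnajb2*, 0.047 for *Dnajc1*, −0.017 for *Hsp90ab1*, −0.0090 for *Hspa4l*, −0.14 for *Hspb8* and −0.45 for *Hsph1*. Without A7, A8 and A31, where A12 is the only control library, it had the other sign, with 0.064 for *Dnajb5*, 0.30 for *Dnajc19*, −0.083 for *Hsp90aa1*, −0.049 for *Hsp90ab1*, −0.23 for *Hspa4l*, −0.0004 for *Hspa5*, 0.40 for *Hspb2*, 0.079 for *Hspb6* and −0.11 for *Hspb8*. These values compare A12 alone with the other label and give no direction for the groups. With the highest transcript of each gene, it reversed to 0.043 for *Dnajb6*, 0.0030 for *Dnajc19* and −0.072 for *Hsph1*. In limma voom, it reversed to 0.019 for *Dnajc1*, 0.060 for *Dnajc19* and −0.024 for *Hsph1*. With the contractile covariate, it reversed to 0.059 for *Dnajc19*, 0.060 for *Hsp90b1* and −0.0086 for *Hspa4l*. Leaving out each library in turn reversed it for 12 genes, with ranges of −0.0029 to 0.18 for *Dnajb11* (without A7 and A8), −0.023 to 0.16 for *Dnajb2* (without A25 and A7), −0.12 to 0.0073 for *Dnajb6* (without A24 and A8), −0.52 to 0.067 for *Dnajb9* (without A8 and A12), −0.15 to 0.084 for *Dnajc1* (without A7 and A12), −0.0079 to 0.50 for *Dnajc15* (without A7 and A8), −0.36 to 0.35 for *Dnajc19* (without A7 and A8), −0.089 to 0.49 for *Hspa4l* (without A8 and A12), −0.048 to 0.085 for *Hspa5* (without A24 and A8), −0.16 to 0.14 for *Hspa8* (without A24 and A8), −0.066 to 0.13 for *Hspb8* (without A25 and A26) and −0.22 to 0.52 for *Hsph1* (without A25 and A29). The cause was not tested for any of these changes. The mean level of *Dnaja1* was 257 TPM, and 95.1 TPM with the length of the longest transcript. No paired analysis was possible because the replicate identifiers of the groups differ. The totals of A24 and A25, under those of the other 6 libraries, limit genes with few counts, among them *Hspa2*, *Hspb2*, *Hspb7* and *Dnajb13*.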
